A study of Mus musculus with 16 samples.

Results

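Transcripts of 10 genes that make, store, take up and break down monoamines were followed in nuclear RNA of the mouse colon. The genes were chosen by name and matched through the GRCm38 symbols of their Ensembl identifiers, which gave 10 of the 51912 genes in the count table. Tyrosine hydroxylase (Th), aromatic L-amino acid decarboxylase (Ddc) and dopamine beta-hydroxylase (Dbh) are the enzymes that turn tyrosine into dopamine and noradrenaline. Tph1 and Tph2 hydroxylate tryptophan for serotonin, and Gch1 starts the synthesis of tetrahydrobiopterin, the cofactor of Th, Tph1 and Tph2. Slc18a1 (VMAT1) and Slc18a2 (VMAT2) load monoamines into vesicles, Slc6a4 (SERT) takes serotonin back into cells, and Maoa oxidises serotonin, noradrenaline and dopamine in mitochondria.

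In the gut, most serotonin is made with Tph1 by enterochromaffin cells of the epithelium, while a small set of myenteric neurons makes it with Tph2. Dopamine is made by some intrinsic neurons, and noradrenaline reaches the myenteric plexus mainly in the fibres of sympathetic neurons, whose cell bodies and nuclei lie outside the gut wall.

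The libraries came from C57BL/6 mice kept under specific pathogen-free conditions, all of which carried AAV9-CaMKII-EGFPKASH, a vector given into the blood 5 weeks earlier. Its CaMKII promoter drives a nuclear membrane EGFP, so a neuron that was not transduced is counted among the EGFP-negative nuclei. The 4 groups, with 4 libraries each, were EGFP-positive (neuronal) nuclei of mice given 3-methylcholanthrene, an agonist of the aryl hydrocarbon receptor (AhR), EGFP-positive nuclei of mice given corn oil, and the EGFP-negative (non-neuronal) nuclei of mice given the agonist and of mice given corn oil. Both injections were intraperitoneal and preceded the isolation of nuclei from the colonic muscle layer and its myenteric plexus by 14 hours. The labels give no dose, no age, and no statement of whether a library is 1 mouse or a pool, so the p-values measure only the spread between these samples.

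Total counts ran from 2663738 to 4902303 per library, so that 1 count was worth 0.221 to 0.414 CPM (counts scaled to the TMM-adjusted library size). The summed level of 10 neuron markers was 2291 to 3853 CPM in neuronal agonist, 2086 to 2608 CPM in neuronal corn oil, 63.0 to 397 CPM in non-neuronal agonist and 126 to 440.1 CPM in non-neuronal corn oil libraries. Cyp1a1, the classic AhR target, had 10 to 29 counts in the neuronal agonist libraries and 0 in all 4 neuronal corn oil libraries. Non-neuronal agonist libraries 1 to 4 held 31, 19, 623 and 712 counts of Cyp1a1, against 0, 0, 1 and 0 in the non-neuronal corn oil libraries. Non-neuronal agonist libraries 1 and 2 also stood apart by their mitochondrially encoded counts, at 42.8% and 33.3% of the total, against 10.3% to 26.3% in the other non-neuronal libraries and 1.77% to 6.11% in the neuronal ones. The column headers of the count table carry a project name about AhR knockout mice that the labels do not mention, and groups were taken from the labels.

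The genes lie on 8 chromosomes (GRCm38), with Th at chr7:142892752-142931128 on the minus strand, Slc18a2 at chr19:59260896-59296012 on the plus strand, Slc6a4 at chr11:76998603-77032340 on the plus strand and Maoa at chrX:16619698-16687818 on the plus strand. Slc18a2 shares 111 exon bases, 2.12% of its exons, with the antisense gene Gm29261, and no exon base of the other 9 lies in an exon of another gene. The 250 bases before the RefSeq start of transcription are shown for these 4 genes, because Slc18a2 was the most abundant of the 10 in neuronal nuclei and Th, Slc6a4 and Maoa had the lowest unadjusted p-values between agonist and corn oil mice there. Capitals mark 3 motifs searched on both strands, none of which overlap: GCGTG, the core of the sequence bound by AhR with its partner ARNT, TGACGTCA, the cyclic AMP response element, and GGGCGG, the GC box bound by Sp1. They occur in 28.16%, 1.546% and 32.74% of the 32851 promoters of the same length. The sequences are from RefSeq, GRCm38.p6, 5' to 3' on the strand of the gene, at chr7:142899996-142900245 for Th (minus strand, inside the annotated gene span, which runs farther upstream), chr19:59260628-59260877 for Slc18a2 (plus), chr11:76998347-76998596 for Slc6a4 (plus) and chrX:16619448-16619697 for Maoa (plus).
Th: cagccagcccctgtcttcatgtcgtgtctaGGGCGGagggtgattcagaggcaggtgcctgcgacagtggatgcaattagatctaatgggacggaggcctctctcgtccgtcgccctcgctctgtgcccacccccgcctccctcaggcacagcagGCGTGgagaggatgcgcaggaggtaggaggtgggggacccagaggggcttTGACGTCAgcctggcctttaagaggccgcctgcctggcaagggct
Slc18a2: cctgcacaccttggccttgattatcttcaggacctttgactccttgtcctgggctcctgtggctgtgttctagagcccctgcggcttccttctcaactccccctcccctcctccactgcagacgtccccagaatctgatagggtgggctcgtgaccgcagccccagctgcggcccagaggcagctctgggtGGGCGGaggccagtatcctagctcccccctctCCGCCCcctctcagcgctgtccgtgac
Slc6a4: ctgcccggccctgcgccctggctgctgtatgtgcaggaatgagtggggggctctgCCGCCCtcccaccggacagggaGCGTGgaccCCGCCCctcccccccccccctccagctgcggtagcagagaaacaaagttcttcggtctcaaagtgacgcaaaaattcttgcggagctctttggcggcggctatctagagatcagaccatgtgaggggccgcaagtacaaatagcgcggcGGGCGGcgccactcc
Maoa: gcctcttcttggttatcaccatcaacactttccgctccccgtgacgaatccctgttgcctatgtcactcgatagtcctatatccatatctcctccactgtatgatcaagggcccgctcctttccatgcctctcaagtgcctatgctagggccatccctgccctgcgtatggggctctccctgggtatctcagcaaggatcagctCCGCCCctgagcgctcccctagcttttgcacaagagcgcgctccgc
The Th promoter held the AhR core once, the cyclic AMP element once and the GC box once. Slc6a4 held the AhR core once and the GC box 3 times, while Slc18a2 held 2 GC boxes and Maoa 1, with no AhR core in these windows. Among the windows not shown, a Tph1 window held the AhR core 2 times and a Ddc window held it once. Another window of each, and those of Dbh, Tph2 and Gch1, held none. A match describes the letters and is not a binding site.

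Per kilobase of exon, Slc18a2 stood far above the other 9 genes in neuronal nuclei, at 23.3 ± 7.70 CPM per kb with agonist and 28.7 ± 3.00 with corn oil (SD, n = 4 each). In neuronal agonist libraries Maoa followed at 8.28 ± 3.09, Th at 5.62 ± 4.98, Dbh at 4.88 ± 4.36 and Gch1 at 1.90 ± 1.46 CPM per kb, and each pair of neighbours in this order, Maoa to Gch1, differed by less than the larger SD of the pair. In neuronal corn oil libraries Dbh, Maoa and Gch1 had 3.19 ± 0.771, 3.16 ± 1.38 and 2.83 ± 0.876 CPM per kb, which did not differ beyond their spread, and Th had 0.755 ± 0.545. Ddc, which every catecholamine and serotonin pathway needs, reached only 0.456 ± 0.394 CPM per kb in neuronal agonist and 0.594 ± 0.586 in neuronal corn oil libraries. In non-neuronal nuclei Maoa led, at 36.1 ± 25.4 CPM per kb with agonist and 11.1 ± 4.61 with corn oil. It was followed by Ddc at 8.55 ± 11.4 and Slc18a2 at 4.03 ± 2.05 in agonist libraries, and by Slc18a2 at 7.08 ± 2.50 and Ddc at 2.67 ± 2.49 in corn oil libraries. Tph2 was last or next to last in 3 of the 4 groups, with 0.0490 ± 0.0981 CPM per kb in neuronal agonist libraries, 0 counts in neuronal corn oil libraries, and 0.144 ± 0.288 and 0.243 ± 0.236 in non-neuronal agonist and non-neuronal corn oil libraries.

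**Figure D1:**
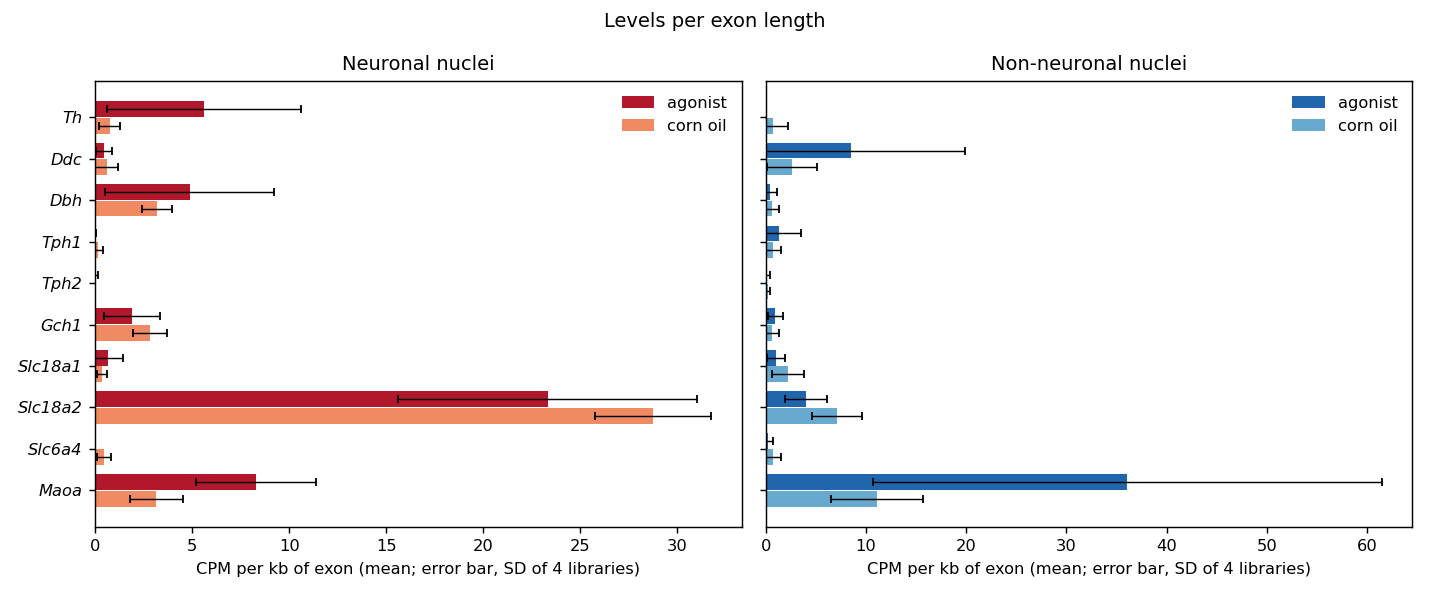
Mean level of each gene per kilobase of exon (CPM per kb, horizontal axis) in neuronal nuclei (left) and non-neuronal nuclei (right), agonist above corn oil, with the SD of 4 libraries as error bars, which are cut at 0. Slc18a2 has the longest bars among neuronal nuclei and Maoa among non-neuronal nuclei, where the SD of Maoa with agonist is 25.4 around a mean of 36.1.

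Setting neuronal against non-neuronal nuclei asks which monoamine genes belong to the tagged neurons. Slc18a2 was higher in neuronal nuclei under both treatments and Maoa was lower under both, and Ddc was lower in agonist mice. Of the 10 genes, 6 passed the filter on low counts in each of these comparisons (Dbh, Ddc, Slc18a1, Slc18a2, Gch1 and Maoa). Called means an adjusted p under 0.05 by edgeR's quasi-likelihood test with Benjamini-Hochberg adjustment over all genes tested. In agonist mice 3 of the 6 were called, against 13.6% of all genes tested, and in corn oil mice 2 of the 6, against 25.4%.

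The vesicular transporter Slc18a2 had 123, 64.6, 151 and 149 CPM in neuronal agonist libraries 1 to 4, and 8.08, 24.8, 33.4 and 17.9 CPM in the non-neuronal agonist libraries. With corn oil it had 156, 165, 128 and 151 CPM in neuronal libraries, against 46.2, 23.9, 50.04 and 27.8 CPM in non-neuronal libraries. The lowest neuronal library lay above the highest non-neuronal library under both treatments, a separation in that direction that 12.6% of all genes tested showed in agonist mice and 16.6% in corn oil mice. The log2 fold change was 2.40 (SE 0.62, adjusted p = 0.0165 by edgeR's quasi-likelihood test) in agonist mice and 2.003 (SE 0.31, adjusted p = 0.000401) in corn oil mice.

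Maoa had 52.4, 27.1, 35.1 and 23.4 CPM in neuronal agonist libraries, against 277, 195, 43.9 and 86.0 CPM in non-neuronal agonist libraries. With corn oil the values were 10.2, 10.3, 21.8 and 10.5 CPM in neuronal libraries and 42.5, 31.0, 74.1 and 37.1 CPM in non-neuronal libraries. Every neuronal corn oil library lay below every non-neuronal one, as 14.3% of all genes tested did, while the agonist groups overlapped. The log2 fold change was -2.35 (SE 0.63, adjusted p = 0.0214 by edgeR's quasi-likelihood test) in agonist mice and -1.82 (SE 0.46, adjusted p = 0.0106) in corn oil mice. In bulk nuclei, fewer nuclei of a type and less RNA in each cannot be told apart.

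Ddc had 0.258, 3.41, 0.799 and 3.67 CPM in neuronal agonist libraries, against 111, 4.14, 35.2 and 2.43 CPM in non-neuronal agonist libraries, of which the first was by far the highest. The log2 fold change was -4.37 (SE 1.36, adjusted p = 0.0441 by edgeR's quasi-likelihood test), although the groups overlapped. With corn oil Ddc had 1.07, 0, 5.77 and 3.76 CPM in neuronal libraries and 28.3, 3.92, 6.15 and 9.28 CPM in non-neuronal libraries, and its log2 fold change of -2.17 (SE 1.07) was not called (adjusted p = 0.164).

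The calls in agonist mice changed with single libraries. Without the pair of non-neuronal agonist libraries above 30% mitochondrial counts, none of the 3 was called: the log2 fold change was 2.25 for Slc18a2 (adjusted p = 0.0503 by edgeR), -0.90 for Maoa (0.481) and -3.18 for Ddc (0.194). Slc18a2 also missed the threshold without neuronal agonist library 3 (adjusted p = 0.0604) or 4 (0.0549). Maoa stayed called without neuronal agonist library 1 or non-neuronal agonist library 3 or 4, and missed the threshold without any of the other 5, at adjusted p-values of 0.0508 to 0.0869. Ddc stayed called without non-neuronal agonist library 2 or 4, and missed the threshold without any of the other 6, at adjusted p-values of 0.0551 to 0.221. In corn oil mice Slc18a2 and Maoa stayed called whichever library was left out, at log2 fold changes of 1.82 to 2.23 and -2.18 to -1.45.

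The other genes differed less clearly. Dbh had 29.9, 10.0, 2.66 and 9.88 CPM in neuronal agonist libraries against 4.04, 0, 0.771 and 0 CPM in non-neuronal agonist libraries, a log2 fold change of 3.20 (SE 1.51) that was not called (adjusted p = 0.197 by edgeR). With corn oil it had 5.88, 10.8, 8.28 and 9.40 CPM in neuronal libraries against 2.80, 0.712, 3.63 and 0 CPM in non-neuronal libraries. These corn oil groups did not overlap, as 16.6% of all genes tested did not in this direction, and the log2 fold change of 2.22 (SE 1.00) was not called (adjusted p = 0.128). Gch1, the cofactor enzyme, had 20.3, 23.4, 16.3 and 10.7 CPM in neuronal corn oil libraries against 1.68, 7.12, 7.83 and 0 CPM in non-neuronal corn oil libraries, again without overlap (16.6% of all genes tested) and not called (log2 fold change 2.06, SE 0.95, adjusted p = 0.137). In agonist mice its log2 fold change was 0.92 (SE 1.16, adjusted p = 0.687).

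Slc18a1, the vesicular transporter of endocrine cells, had 3.48, 2.63, 1.00 and 0.537 CPM in neuronal corn oil libraries against 15.9, 21.4, 8.95 and 1.55 CPM in non-neuronal corn oil libraries. Its log2 fold change of -2.66 (SE 0.94) had an adjusted p of 0.0553 by edgeR and of 0.0118 by DESeq2, and edgeR called it without non-neuronal corn oil library 4, the lowest of its group (-3.00, adjusted p = 0.0153). In agonist mice its log2 fold change was -0.88 (SE 1.38, adjusted p = 0.755). The vesicular transporters Slc18a2 and Slc18a1 had fold changes of opposite sign under both treatments, and edgeR called that of Slc18a2.

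**Figure D2:**
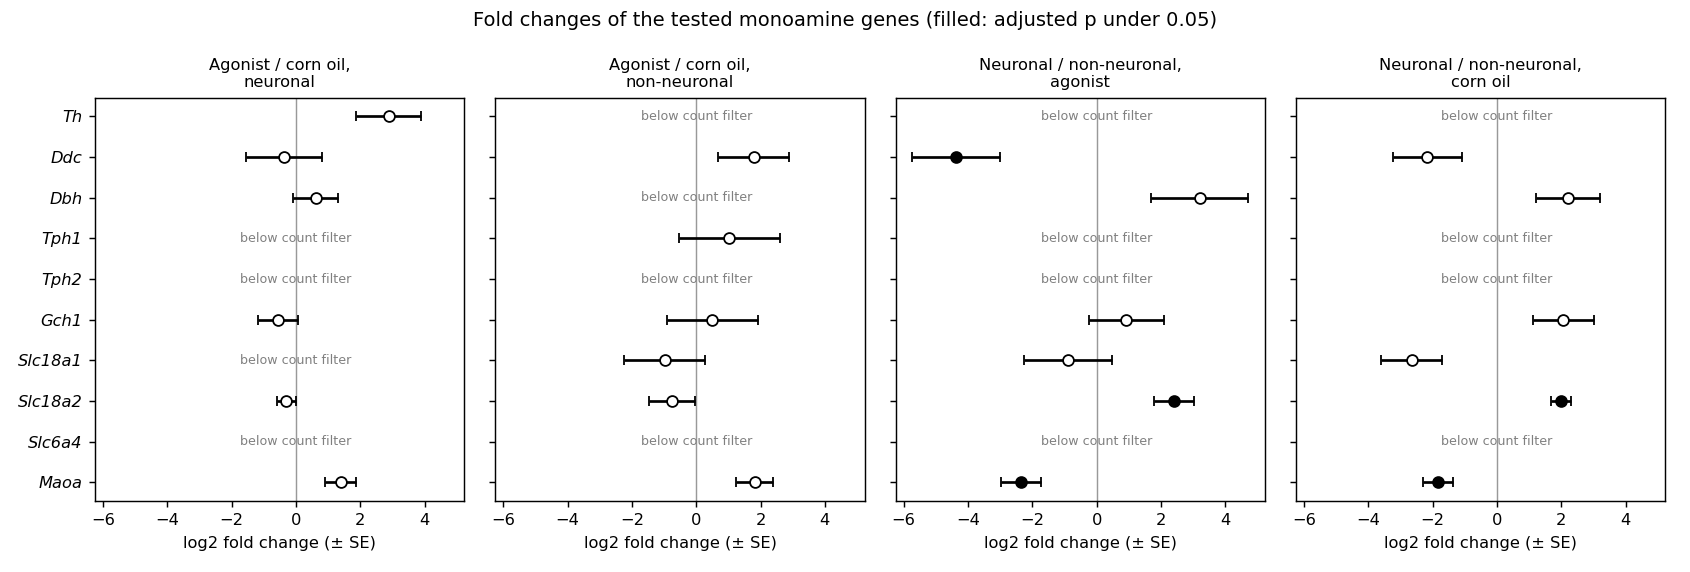
Log2 fold changes of the genes that passed the count filter, with their SE, for agonist against corn oil in neuronal and non-neuronal nuclei and for neuronal against non-neuronal nuclei in agonist and corn oil mice. Filled points mark an adjusted p under 0.05, which Slc18a2 and Maoa have in both right panels and Ddc in agonist mice, while both left panels hold open points.

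Th passed the filter in neither population comparison. It had 110, 68, 2 and 31 counts in neuronal agonist libraries and 0 in all 4 non-neuronal agonist libraries, against 13, 8, 3 and 3 counts in neuronal and 25, 0, 0 and 0 counts in non-neuronal corn oil libraries. In agonist mice, with 211 counts against 0, the neuronal level was at least 62.3-fold higher (against a floor of 3 counts over the group). Neuronal libraries lay above non-neuronal ones without overlap, at any fold change, in 6.09% of all genes with a count. A two-sided exact permutation test gave p = 0.0286, the smallest that 4 against 4 libraries allow, and 0.229 after adjustment over the 16 tests of genes below the filter. EdgeR called Th with no filter (adjusted p = 0.00732) and with all 4 groups in 1 fit (0.0103), but not without the libraries above 30% mitochondrial counts (0.0516). In corn oil mice the means were 1.79 ± 1.29 CPM for the neuronal and 1.75 ± 3.50 CPM for the non-neuronal group (exact permutation p = 1.0), and library 1 held all 25 non-neuronal counts.

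The serotonin genes Tph1, Tph2 and Slc6a4 were below the filter in both population comparisons. Tph1 had 1 count in all neuronal agonist libraries together against 97 in the non-neuronal agonist libraries, a ratio of 0.00914 (95% counting interval 0.000229 to 0.0521), but 84 of these 97 came from library 1 (exact permutation p = 0.257). In agonist mice edgeR called Tph1 with all 4 groups in 1 fit (adjusted p = 0.0254), but not with no filter (0.067). With corn oil Tph1 had 16 counts in neuronal and 64 in non-neuronal libraries (exact permutation p = 0.2). Tph2, the enzyme of serotonergic neurons, had 2 counts in neuronal agonist, 0 in neuronal corn oil, 4 in non-neuronal agonist and 9 in non-neuronal corn oil libraries. For a group with 0 counts the limit is 3 counts, or 0.197 CPM for neuronal corn oil nuclei, so lower levels of Tph2 were not detectable at this depth. Slc6a4 had 32 counts in neuronal corn oil and 39 in non-neuronal corn oil libraries (exact permutation p = 0.771). With agonist Slc6a4 had 0 counts in neuronal and 15 in non-neuronal libraries, 13 of these in library 1 (exact permutation p = 0.429).

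**Figure D3:**
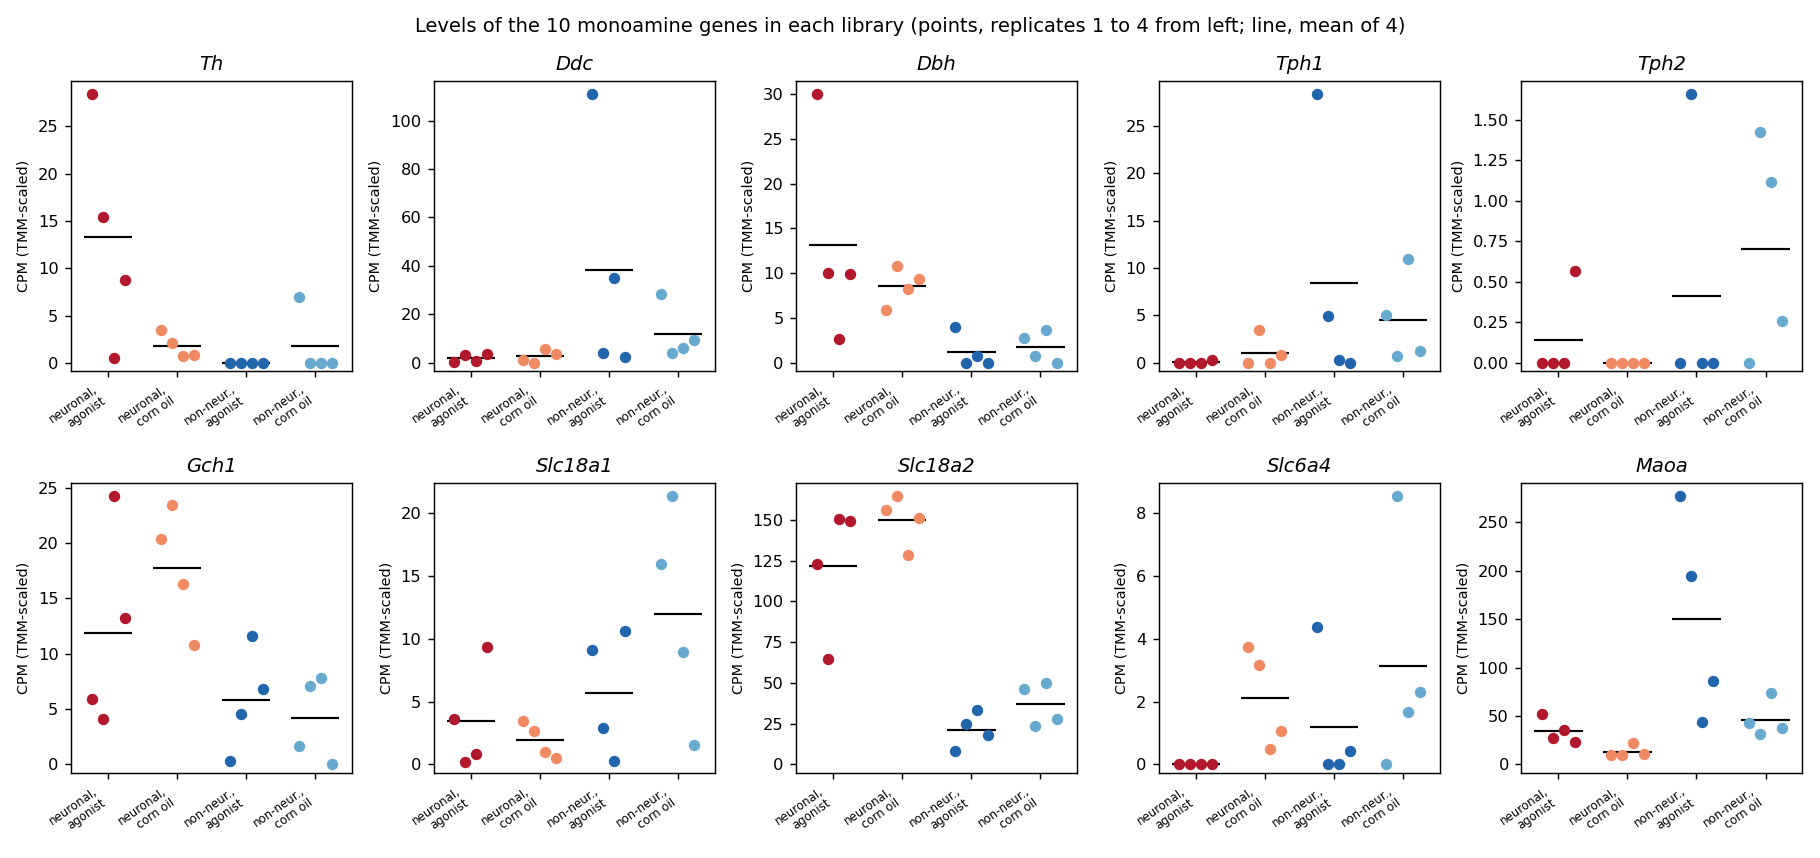
TMM-scaled CPM of each of the 10 genes (vertical axes, each with its own scale) in the 4 groups. Points are the 4 libraries, in replicate order from the left, and lines are group means. Slc18a2 separates neuronal from non-neuronal libraries, Maoa lies between 23.4 and 52.4 CPM in neuronal agonist and between 10.2 and 21.8 CPM in neuronal corn oil libraries, and Slc6a4 is at 0 in the neuronal agonist libraries.

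The comparison of agonist with corn oil mice asks whether the levels of these genes changed with the agonist within each population. None of the 6 genes tested in neuronal nuclei was called, nor was any other tested gene, since edgeR called 0% of 14182 genes. Of these, 711 genes had an unadjusted p under 0.05, and DESeq2 called 9 genes, none of them among the 6. Cyp1a1 did not pass the count filter in this comparison, so it was not tested. Maoa was higher in all 4 neuronal agonist libraries than in any neuronal corn oil library, as 1.45% of all genes tested were. Its means were 34.5 ± 12.9 and 13.2 ± 5.77 CPM (SD, n = 4 each), with a log2 fold change of 1.39 (SE 0.48, unadjusted p = 0.0127, adjusted p = 0.903 by edgeR). Mitochondrially encoded counts overlapped between these groups, at 1.77% to 5.28% with agonist and 1.95% to 6.11% with corn oil. Their part in the level of Maoa was not tested.

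Th averaged 13.3 ± 11.8 CPM in neuronal agonist and 1.79 ± 1.29 CPM in neuronal corn oil libraries. Libraries 1, 2 and 4 with agonist held 28.4, 15.5 and 8.75 CPM and lay above the 0.753 to 3.48 CPM of all corn oil libraries, while library 3 held 0.533 CPM. The log2 fold change of 2.88 (SE 1.02, unadjusted p = 0.0145) was not called (adjusted p = 0.903 by edgeR). Neuronal agonist library 1, which was highest for Th, Dbh and Maoa, also had the highest neuron marker sum, 3853 CPM, and the fewest genes with a count, 17293, and its part in these values was not tested. Without it the log2 fold change was 2.19 for Th, 1.11 for Maoa and -0.19 for Dbh, against 0.62 (SE 0.71) for Dbh with all libraries.

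Slc6a4 had 0 counts in all neuronal agonist libraries and 14, 12, 2 and 4 counts in the neuronal corn oil libraries. Against a floor of 3 counts over the group, it was at least 10.9-fold lower with agonist. This bound covers counting error only, not the spread between libraries. The exact permutation test gave p = 0.0286, the smallest possible, and 0.229 after adjustment over 16 tests, and 1.81% of all genes with a count were lower in this way without overlap. With no filter on low counts its adjusted p was 0.289 by edgeR. Neuronal agonist libraries also had fewer genes with a count, 17293 to 21247 against 21063 to 26379 with corn oil, and its part in the absence of Slc6a4 was not tested. Slc18a2 averaged 122 ± 40.2 CPM with agonist and 150.1 ± 15.7 CPM with corn oil in neuronal nuclei (log2 fold change -0.30, SE 0.28, adjusted p = 0.944 by edgeR). Ddc and Gch1 had log2 fold changes of -0.38 (SE 1.19) and -0.57 (SE 0.62), both smaller than their SE. Slc18a1, Tph1 and Tph2 were below the filter, with 51, 1 and 2 counts with agonist against 29, 16 and 0 with corn oil. The exact permutation p was 0.629 for Slc18a1 and 0.429 for Tph1. Over the 6 tested genes the median log2 fold change was 0.16, beside 0.08 over all genes tested.

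In non-neuronal nuclei edgeR called 0 of the 6 tested monoamine genes and 0.0135% of all genes, 2 of 14846, while 715 had an unadjusted p under 0.05 and DESeq2 called 35, none of them among the 6. Maoa averaged 150.4 ± 106 CPM with agonist and 46.2 ± 19.2 CPM with corn oil, with 3 agonist libraries above the highest corn oil library. Its log2 fold change of 1.82 (SE 0.58, unadjusted p = 0.00627) was not called (adjusted p = 0.954 by edgeR). The highest values of Maoa, 277 and 195 CPM, were those of the libraries with 42.8% and 33.3% mitochondrial counts. Without that pair the log2 fold change was 0.48 (SE 0.63, adjusted p = 0.836).

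Non-neuronal agonist library 1 carried most of the Ddc and Tph1 signal, with 111 CPM of Ddc and 28.3 CPM of Tph1. It was also the library with the most transcript of the epithelial brush-border gene Vil1, 708 CPM against 5.14 to 53.4 CPM in the other agonist libraries and 7.22 to 111 CPM in the corn oil libraries. It held 24.6 CPM of the enteroendocrine factor Neurod1, against 0 to 19.5 CPM in the other agonist libraries and 0.280 to 14.2 CPM with corn oil. Of the other enteroendocrine and enterochromaffin markers, Sct (12.1 CPM) and Fev (4.38 CPM) were also highest there. Chga was not, at 2.02 CPM against 18.5 CPM in non-neuronal corn oil library 2. Nor were Chgb and Lmx1a, at 21.9 and 0 CPM against 31.3 and 6.15 CPM in non-neuronal corn oil library 3. Muc2 of goblet cells, the largest part of the epithelial sum, had 3159, 2340, 882.9 and 2947 CPM in non-neuronal agonist libraries 1 to 4. Non-neuronal corn oil libraries 1 to 4 had 5420, 4526, 12860 and 1451 CPM of Muc2. Agonist library 1 was thus highest for Muc2 only among the agonist libraries. All 9 epithelial markers summed to 1093 to 4975 CPM in non-neuronal agonist and 1574 to 13590 CPM in non-neuronal corn oil libraries, the highest being corn oil library 3, and to at most 107 CPM in any neuronal library. The 10 markers of enteroendocrine and enterochromaffin cells summed to 14.6 to 68.4 CPM in non-neuronal agonist and 12.9 to 52.3 CPM in non-neuronal corn oil libraries, with Pax4 and Insm1 at 0 in both, and the 7 mast cell markers to 1.11 to 52.2 and 1.68 to 14.2 CPM, with Tpsb2 at 0 in both. Non-neuronal agonist library 1 had 37.7 CPM of the mast cell sum, below the 52.2 CPM of agonist library 2. Of the mast cell markers, Ms4a2 was highest in agonist library 1, at 8.42 CPM, while Cpa3 and Tpsb2 were at 0 there. The part of these cells in the levels of Ddc and Tph1 was not tested. The log2 fold changes with agonist were 1.79 (SE 1.105, adjusted p = 0.954 by edgeR) for Ddc and 1.03 (SE 1.57, adjusted p = 0.986) for Tph1, and without library 1 they were 0.20 and -1.31.

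**Figure D4:**
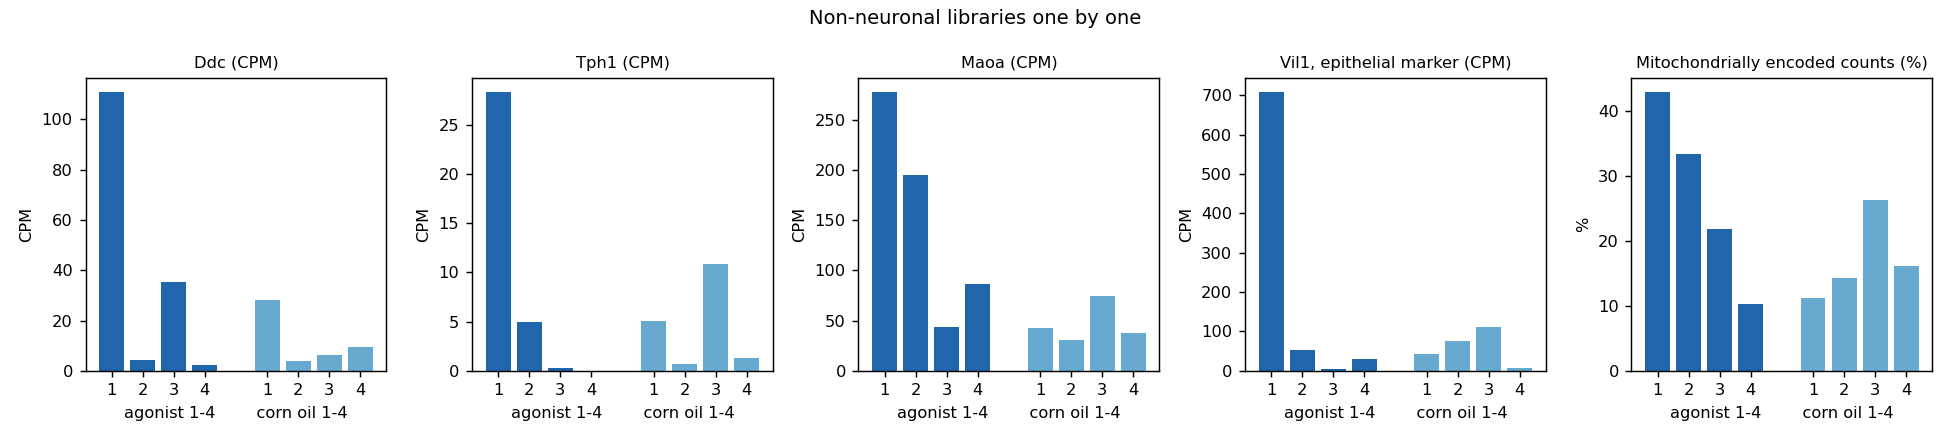
Ddc, Tph1, Maoa and the epithelial marker Vil1 (CPM) and the share of mitochondrially encoded counts (%) in the 4 non-neuronal agonist libraries (dark) and the 4 non-neuronal corn oil libraries (light). Agonist library 1 is highest in all 5 panels, at 111, 28.3, 277 and 708 CPM and 42.8%.

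The remaining non-neuronal values overlapped between treatments. Slc18a2 averaged 21.1 ± 10.7 CPM with agonist and 37.0 ± 13.1 CPM with corn oil (log2 fold change -0.75, SE 0.72), Slc18a1 5.72 ± 4.94 and 12.0 ± 8.60 CPM (-0.99, SE 1.25) and Gch1 5.83 ± 4.68 and 4.16 ± 3.90 CPM (0.49, SE 1.41), with adjusted p-values of 0.978 to 0.992 by edgeR. Th, Dbh, Tph2 and Slc6a4 were below the filter, and their exact permutation p-values were 0.543 to 1.0. The median over the 6 tested genes was 0.76 on the log2 scale, beside 0.13 over all genes tested. It lies between Gch1 (0.49) and Tph1 (1.03), which both changed sign with a single library left out, to -0.042 and -1.31.

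Whether the agonist response differed between the populations was tested with an interaction term over all 16 libraries, for which 8 of the 10 genes passed the filter. None was called, as edgeR called 0% of 18566 genes, with 1484 genes at an unadjusted p under 0.05 and 103 genes called by DESeq2, none of them among the 8. Maoa had a difference of -0.37 (SE 0.76, adjusted p = 0.957) between its neuronal and non-neuronal log2 fold changes. Th had the smallest adjusted p of the 8, 0.432, with 211 counts in neuronal agonist, 27 in neuronal corn oil, 0 in non-neuronal agonist and 25 in non-neuronal corn oil libraries.

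Other genes of monoamine metabolism were taken from 4 lists. In agonist mice, 2 of the 4 tested genes of breakdown and conjugation were called, both lower in neuronal nuclei, against 13.6% of all genes tested. Maob, the second monoamine oxidase, averaged 0.706 ± 1.05 CPM in neuronal agonist and 28.03 ± 36.5 CPM in non-neuronal agonist libraries (log2 fold change -5.42, SE 1.50, adjusted p = 0.0249 by edgeR), and library 1 alone had 82.2 CPM. Sult1a1, a sulfotransferase of phenols, had a log2 fold change of -3.93 (SE 1.17, adjusted p = 0.0357) there and of -3.69 (SE 0.79, adjusted p = 0.00374) in corn oil mice. In corn oil mice Aldh2, an aldehyde dehydrogenase, was lower too (-2.37, SE 0.66, adjusted p = 0.0175), which made 2 of the 3 tested genes of this list, against 25.4% of all genes tested. Without the pair of libraries above 30% mitochondrial counts neither Maob (adjusted p = 0.277) nor Sult1a1 (0.0548) was called in agonist mice. Maob also missed the threshold there without neuronal library 1, 3 or 4 or non-neuronal library 1 (adjusted p = 0.0504 to 0.122 by edgeR), and Sult1a1 without neuronal library 1, 2 or 3 or non-neuronal library 4 (0.0588 to 0.140). In corn oil mice Aldh2 missed it without neuronal library 1, 2 or 4 or non-neuronal library 3 (0.0540 to 0.0663), and with all 4 groups in 1 fit (0.0831). With library size only, neither Maob (0.0546) nor Sult1a1 (0.0728) was called in agonist mice. The medians of this list were -3.83 in agonist and -2.37 in corn oil mice, beside -0.15 and -0.11 over all genes tested.

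Of the transcription factors of aminergic and autonomic neurons, Phox2a was higher in neuronal nuclei in corn oil mice (log2 fold change 4.27, SE 1.13, adjusted p = 0.0132 by edgeR). In agonist mice its log2 fold change of 3.02 (SE 1.39) was not called (adjusted p = 0.184). Fev, the serotonergic factor, had at most 0.269 CPM in any neuronal library. Of the tetrahydrobiopterin genes, 0 of 5 were called in agonist mice and 1 of 4 in corn oil mice, against 13.6% and 25.4% of all genes tested. In corn oil mice neuronal nuclei had less Pts, which acts after Gch1 (log2 fold change -1.63, SE 0.51, adjusted p = 0.0303 by edgeR). Pts missed the threshold without neuronal library 1, 2 or 3 or non-neuronal library 2 (adjusted p = 0.0661 to 0.108), with library size only (0.0649), with no filter (0.0807) and with all 4 groups in 1 fit (0.223). Of the other monoamine transporters only Slc29a4 was tested in either population comparison, and it was not called (adjusted p = 0.391 and 0.136). No gene of the 4 lists was called in either agonist response or in their difference.

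Across the 16 libraries, the genes most like Slc18a2 in log2 CPM among 18566 were Mkln1os (Pearson r = 0.96), 2900027M19Rik (0.95) and Dixdc1 (0.95). For Maoa they were Pdk4 (0.90), Hdlbp (0.89) and Atp5a1 (0.88), and for Th Pitpnm2os2 (0.92), Fibcd1 (0.90) and Ezh1 (0.89). Those nearest to Ddc were Cd34 (0.93), Tm2d2 (0.91) and Prdm16 (0.89), to Dbh AI593442 (0.93), Celsr3 (0.92) and Fabp5 (0.91), to Gch1 Nupr1l (0.86), Slc36a4 (0.86) and Pcdhb16 (0.85), to Slc18a1 Yipf5 (0.82), Aldh16a1 (0.80) and Rhpn2 (0.80), and to Tph1 Slc23a4 (0.90), Olfr1318 (0.89) and Fam3c (0.87). These libraries fall into the 4 groups, which all genes share, so the values are a description.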

How the data were processed

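The authors deposited 1 table of expected counts per Ensembl gene and library, made with RSEM 1.3.0 and STAR 2.5.2 on GRCm38, and DESeq2 1.10.1 is also named, per the submitters' processing notes. Neither a strand setting nor an annotation release is given in the sources used here. Per the labels' protocols, nuclear RNA was amplified with a kit that does not mark strand and read as 75 bp single ends, so reads from a gene and its antisense partner cannot be told apart. Symbols and positions came from GENCODE M21 by Ensembl identifier.

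Expected counts, of which 89.2% to 94.3% were whole as deposited, were rounded and fitted in edgeR 4.0.16 (R 4.3.3) with TMM scaling, filterByExpr (minimum count 10, minimum total 15) and quasi-likelihood F-tests, two-sided. The 2-group comparisons used their 8 libraries and the difference all 16. A gene was called where its p, adjusted by Benjamini-Hochberg over all genes of the comparison, was under 0.05. Genes below the filter were compared by two-sided exact permutation tests of mean CPM, 16 tests in 1 family. CPM used TMM factors over all 16 libraries, and CPM per kb the union of exons. Intervals and floors (3 counts over a group) cover counting error only. The steps were tested on simulated counts.

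The 10 genes and all lists were chosen with earlier results of these data known. All 10 are named in each 2-group comparison, and some of them in the difference. Of the 4 pathway lists the called genes are named, at most 4 per list. Other genes of these lists and markers of other cells are named for their levels. The genes most like each were the 3 with the highest Pearson r of log2 CPM (prior count 2), for genes with a mean count of at least 10. Alternatives were DESeq2 1.42.0, RLE factors, library size only, no filter, all 4 groups in 1 fit, a replicate block, leaving out libraries above 30% mitochondrial counts, and leaving out each library. The 250-base promoters are from RefSeq, in which 9 of the 10 genes were matched. The result of 1 gene of the transcription factor list is not reported here.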

Additional observations from a re-analysis of the deposited data

Results flagged for a closer look

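A library stood far from the other 3 of its group, by Dixon's test at the 95% level, in 6 of the 37 gene and group combinations with any spread and in 7 of 44 sums of cell type markers. Chance marks about 1 in 20 groups of 4 where values spread normally. A group with 3 libraries at 0 and any count in the fourth is always marked, which covers 4 of the 6 gene groups, so 6 of 37 cannot be read against that rate. The Th level of non-neuronal corn oil library 1 was 6.99 CPM, and the other 3 libraries were at 0. Tph1 and Tph2 stood out in neuronal agonist library 4 at 0.282 and 0.565 CPM, which are 1 and 2 counts. Tph2 had 1.66 CPM, 4 counts, in non-neuronal agonist library 2, and its 3 companions were at 0. Slc6a4 had 4.38 CPM in non-neuronal agonist library 1. Maoa had 21.8 CPM in neuronal corn oil library 3, against 10.2 to 10.5 CPM in the other 3.

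Among the marker sums, neuron markers reached 3853 CPM in neuronal agonist library 1. Smooth muscle markers reached 498 CPM in neuronal agonist library 4 and 11900 CPM in non-neuronal corn oil library 4. Mast cell markers summed to 0.266 CPM in neuronal agonist library 3, a single count of Cpa3. Enteroendocrine and enterochromaffin markers summed to 54.7 CPM in neuronal corn oil library 3. Most of this was Chga (37.15 CPM) and Chgb (14.06 CPM), while Neurod1, Pax4, Sct and Pyy were at 0 in that group. Sympathoadrenal markers reached 4.04 CPM in non-neuronal agonist library 1 and 43.8 CPM in non-neuronal corn oil library 2. In the latter, the sum held Chga (18.5 CPM), which is also an enteroendocrine marker, Slc6a2 (18.2 CPM) and Pnmt (7.12 CPM). Th was at 0 and Dbh at 0.712 CPM in that library.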

How the results depend on the processing

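No monoamine gene was called in either agonist response or in their difference under any alternative run. In agonist mice, neuronal against non-neuronal nuclei, 3 genes were called, but 1 with library size only, 5 with all 4 groups in 1 fit, 0 without the libraries above 30% mitochondrial counts, and 0 to 4 with each library left out. In corn oil mice 2 were called, and 2 to 3 with each library left out. Over all genes, the neuronal agonist response gave 0 calls, against 9 with DESeq2 and 152 with no filter. The non-neuronal one gave 2, against 35 with DESeq2, 88 with no filter, 11 with 4 groups in 1 fit, 0 with library size only, 1 without the libraries above 30% and 0 to 2 with each library left out. The difference gave 0, against 103 with DESeq2, 110 with no filter, 7 without the libraries above 30% and 0 to 9 with each library left out. In agonist mice 1918 genes were called, against 2937 with DESeq2, 3324 with no filter and 4590 with 4 groups in 1 fit. The causes were not tested.

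Library size only moved the median log2 fold change of all genes from -0.15 to 0.43 in agonist mice, from -0.11 to 0.11 in corn oil mice, from 0.13 to -0.28 for the non-neuronal agonist response and from 0.04 to 0.28 for the difference. It called 1332 genes higher and 649 lower in agonist mice, against 938 and 980 with TMM. Fold changes that were not called turned round in 9 cases. In the neuronal agonist response, with each library left out, Dbh ran from -0.19 (without agonist library 1) to 0.95 and Ddc from -0.82 to 0.33 (without corn oil library 3). In the non-neuronal one Tph1, at 1.03, was -0.54 with the replicate block, -4.88 without the libraries above 30% and from -1.31 (without agonist library 1) to 1.96 with each library left out, where Gch1 ran from -0.042 (without agonist library 3) to 0.98. In the difference Maoa, at -0.37, was 0.88 and Tph1, at -4.38, was 1.35 without the libraries above 30%, and Maoa ran from -0.82 to 0.14 (without non-neuronal agonist library 1) with each library left out.

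Same-numbered libraries of agonist and corn oil mice correlated at -0.10 to 0.18 in their deviations from group means. Between neuronal and non-neuronal nuclei the range was -0.0098 to 0.0731. There the same number matched best for neuronal libraries 1 and 4 in agonist mice and 1, 3 and 4 in corn oil mice. Each was compared with 4 libraries, so chance alone gives a match in 1 of 4 cases. The numbers were not taken as pairs, so the main tests leave out any pairing there may be. Low correlations between different populations of nuclei cannot decide whether same-numbered libraries came from the same mice. With the replicate block Ddc was not called in agonist mice (-3.15, adjusted p = 0.315 by edgeR), which left 2 called genes, and no other call of the 10 genes changed. Low counts kept Tph2 and Slc6a4 out of all 5 comparisons, and Th, Dbh, Tph1 and Slc18a1 out of at least 1 of them.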

Other observations

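Other monoamine transporters were mostly below the count filter. The noradrenaline transporter Slc6a2 had 0 counts in neuronal agonist, 9 in neuronal corn oil, 0 in non-neuronal agonist and 78 in non-neuronal corn oil libraries. Of these 78, 51 came from library 2. The dopamine transporter Slc6a3 had 2, 14, 2 and 13 counts in the same 4 groups. All 13 of the non-neuronal corn oil counts came from library 1. Slc29a4, the plasma membrane monoamine transporter, averaged 16.7 ± 11.2 CPM in neuronal agonist and 10.5 ± 5.33 CPM in neuronal corn oil libraries, against 3.30 ± 5.93 and 1.57 ± 2.91 CPM in non-neuronal agonist and corn oil libraries (SD, n = 4 each). Library 4 held 55 of its 59 non-neuronal agonist counts and 23 of its 24 non-neuronal corn oil counts. Pnmt, the enzyme that makes adrenaline, had 0 counts in all 8 neuronal libraries, 6 in non-neuronal agonist and 22 in non-neuronal corn oil libraries. All 6 came from non-neuronal agonist library 1, and 20 of the 22 from non-neuronal corn oil library 2.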
